A study of Homo sapiens with 6 samples.

Results

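The genes described here encode the machinery that makes and desaturates fatty acids: SREBF1, ACLY, ACACA, ACSS2, FASN, SCD, ELOVL5, ELOVL6, FADS1 and FADS2. They were taken by symbol, and they are 10 of the 59653 rows of a table of estimated read counts from SK-OV3, an established line of human ovarian cancer cells. Each of the 10 passed the filter on low counts, which 19008 rows passed. RNA was taken 48 h after transfection, from 3 siControl libraries, which received a non-targeting siRNA pool, and 3 siPVT1 libraries, which received a pool of siRNAs against the lncRNA PVT1. The labels give both groups as the SKOV3 line and as wildtype, so the groups share 1 line and differ in the siRNA pool, and 1 pool per group was used. The labels do not say whether libraries of a group came from separate cultures, so the p-values measure the spread between these libraries, which may be technical.

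The total count per library ran from 28383171 to 35059576, and the estimated counts of the 10 genes before normalization ran from 264 to 36340. PVT1, the targeted gene, was lower in siPVT1. Its normalized counts were 3298, 4090.5 and 3377 in siControl and 2350, 2111 and 2062 in siPVT1, and the log2 difference was −0.72 (standard error 0.0967, edgeR quasi-likelihood test with Benjamini-Hochberg adjustment, adjusted p = 0.000342). Of 9 markers of ovarian carcinoma epithelium, among them keratins KRT7, KRT8 and KRT18, all 9 passed the filter. KRT19 rose by 2.30 and WT1 fell by 1.01 on the log2 scale past both thresholds, 3 others rose and 2 others fell by the adjusted p-value alone, and the median was −0.43. The summed level of the 9 was 871 to 978 CPM (TMM-scaled counts per unit of library size) in siControl and 1062 to 1177 in siPVT1. Of 12 markers of other cell types, 7 had at most 3 counts in every library, with CD3E and LEP among those at 0. The summed level of those 12 was 66.0 to 67.4 CPM in siControl and 275 to 347 in siPVT1, most of it from CDH5, the endothelial cadherin, with 1998 ± 7.09 and 9314 ± 1108 normalized counts (SD, n = 3 each). PECAM1, another endothelial marker, had 37.5 ± 3.73 and 299 ± 24.3 normalized counts (SD, n = 3 each). CD14, a monocyte marker, fell by 1.42 on the log2 scale, near the floor, from a mean of 7.66 to 2.78 normalized counts. The part of these markers in the results was not tested. In bulk RNA, a change in the number of cells of a type and a change in the RNA per cell cannot be told apart.

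SREBF1 encodes the SREBP-1 transcription factors, which are made as precursors in the membrane of the endoplasmic reticulum. SCAP carries the precursor to the Golgi for cleavage by the MBTPS1 and MBTPS2 proteases, INSIG1 and INSIG2 hold it back when sterols are plentiful, and the freed fragment switches on genes of fatty acid synthesis. ACLY makes acetyl-CoA from citrate and ACSS2 makes it from acetate. ACACA turns acetyl-CoA into malonyl-CoA, and FASN builds palmitate from both. ELOVL6 lengthens palmitate to stearate, and SCD puts the first double bond into saturated chains. FADS2 and FADS1 add further double bonds to polyunsaturated chains, and ELOVL5 lengthens those chains between the steps of the pair. Many carcinomas run this pathway at a high level, and membrane lipids take up much of its output.

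The 10 genes were all higher in siPVT1 than in siControl. SREBF1, ACSS2, SCD, FADS1 and FADS2, 5 of the 10, passed an adjusted p-value under 0.05 and a log2 fold change of at least 1, which 11.8% of all tested genes did in that direction. The other 5, namely ACLY, ACACA, FASN, ELOVL5 and ELOVL6, passed the adjusted p-value but not the fold, so that 10 of 10 rose by the adjusted p-value, beside 29.5% of all tested genes. Of the 10, 0 fell by the adjusted p-value, beside 28.4% of all tested genes. In all 10 the lowest siPVT1 library lay above the highest siControl library, which held for 33.2% of the tested genes. The median log2 fold change of the 10 was 1.10, and that of all tested genes was 0.0014. The changes ran from 0.43 for ELOVL5 to 2.69 for FADS2.

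**Figure D1:**
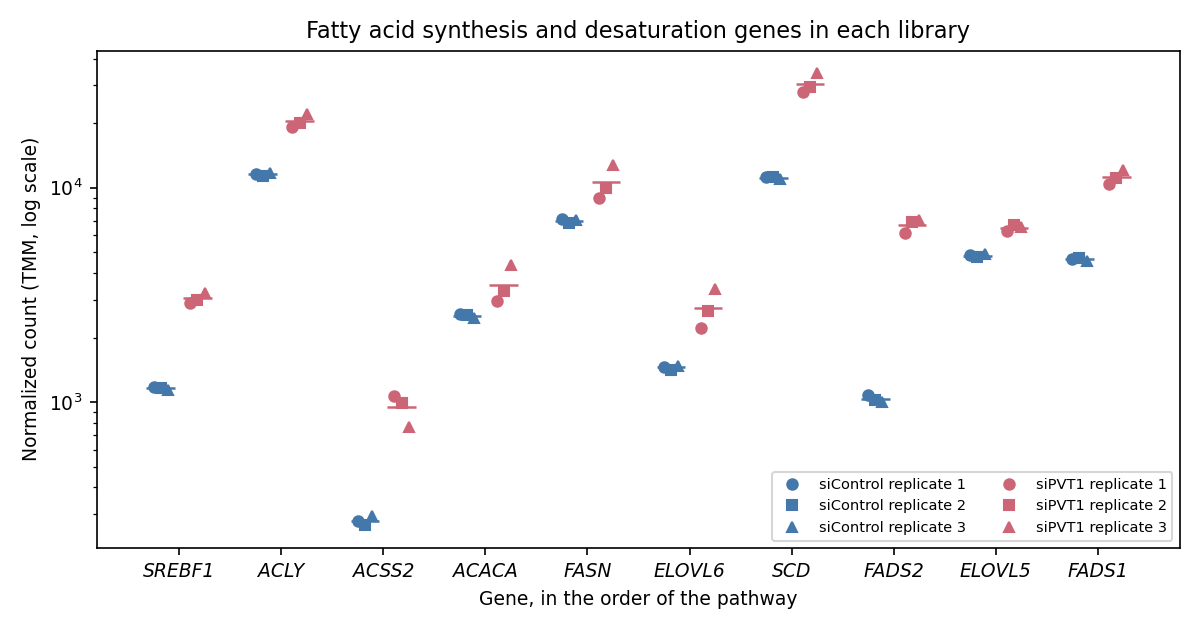
Normalized counts (log scale) of the 10 genes in each of the 3 siControl and 3 siPVT1 libraries, 1 point per library, with a bar at the group mean. The siPVT1 points of each gene lie above all of its siControl points, with the widest gap for FADS2 (1001 to 1080 against 6137 to 7084) and visible scatter in siPVT1 for ACACA, FASN, ELOVL6 and ACSS2.

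The promoter sequences of the 5 genes past both thresholds are shown because SREBP proteins and their partners NF-Y and SP1 bind DNA near such starts. Each line holds the 250 bases before the RefSeq start (GRCh38.p14), 5′ to 3′ on the strand of the gene. Capitals mark the CCAAT letters bound by NF-Y and the GC box GGGCGG bound by SP1, each in either orientation. The windows are chr17:17836987-17837236 on the minus strand for SREBF1, chr20:34876362-34876611 on the plus strand for ACSS2, chr10:100346983-100347232 on the plus strand for SCD, chr11:61817004-61817253 on the minus strand for FADS1 and chr11:61816154-61816403 on the plus strand for FADS2. The FADS2 window belongs to a RefSeq start 11896 bases from the GENCODE canonical start of that gene, whereas for the other 4 the starts are the same.
SREBF1: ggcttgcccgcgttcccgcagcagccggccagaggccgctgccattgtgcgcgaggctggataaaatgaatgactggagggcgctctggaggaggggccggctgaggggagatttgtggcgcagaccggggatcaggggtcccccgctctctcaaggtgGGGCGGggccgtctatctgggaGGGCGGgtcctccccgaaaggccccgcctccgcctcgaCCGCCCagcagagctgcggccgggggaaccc
ACSS2: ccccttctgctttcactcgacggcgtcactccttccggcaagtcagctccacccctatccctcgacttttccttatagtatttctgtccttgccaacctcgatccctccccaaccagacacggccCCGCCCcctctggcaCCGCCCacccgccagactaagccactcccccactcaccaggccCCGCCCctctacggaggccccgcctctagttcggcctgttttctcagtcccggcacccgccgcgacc
SCD: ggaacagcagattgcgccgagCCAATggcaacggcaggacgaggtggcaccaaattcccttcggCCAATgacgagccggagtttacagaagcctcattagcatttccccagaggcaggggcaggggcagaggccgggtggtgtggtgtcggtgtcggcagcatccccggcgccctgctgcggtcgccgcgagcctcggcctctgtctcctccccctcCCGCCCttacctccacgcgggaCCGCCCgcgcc
FADS1: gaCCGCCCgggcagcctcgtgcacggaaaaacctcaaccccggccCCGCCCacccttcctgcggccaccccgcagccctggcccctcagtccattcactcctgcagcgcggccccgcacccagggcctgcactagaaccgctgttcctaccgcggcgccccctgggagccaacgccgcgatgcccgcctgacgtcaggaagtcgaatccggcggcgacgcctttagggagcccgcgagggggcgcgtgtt
FADS2: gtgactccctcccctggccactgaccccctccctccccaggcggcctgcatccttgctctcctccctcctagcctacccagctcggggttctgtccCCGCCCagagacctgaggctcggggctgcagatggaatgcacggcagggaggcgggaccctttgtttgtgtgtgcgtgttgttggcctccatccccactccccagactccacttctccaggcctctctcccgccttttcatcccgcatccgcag

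RefSeq promoter windows were available here for 9 of the 10 genes, and FASN was missing from the source used. In windows that also held the 50 bases after the start, GGGCGG was found on either strand in 8 of the 9, every one but ELOVL5, and in 45.0% of the 35116 windows of all genes. GGGCGG holds only G and C, and the 250 bases before the start were 56% (ELOVL5) to 81.6% (ACACA) G or C in the 9. The windows of all genes were not matched to these in G and C content or in expression, and the part of that content was not tested. CCAAT was found in 4 of the 9, namely ACLY, SCD, ELOVL5 and FADS2, against 34.6% of all windows. The SCD window held CCAAT 229 and 186 bases before the start, and in FADS2 the match lay 6 bases after the start, outside the printed stretch. For every motif, FADS2 was searched at its RefSeq start only, and the stretch at its GENCODE canonical start was not searched. The sterol regulatory element letters TCACNCCAC were in 0 of the 9 windows and in 1.13% of all windows. The E-box CACGTG was in the ELOVL5 window alone among the 9, against 7.26% of all windows. A match is a match of letters, and a window without one says only that these letters are not in that stretch. No search letters overlapped those of another motif.

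SREBF1 lies on chromosome 17, from 17810399 to 17837002 on the minus strand (GRCh38, GENCODE v44). Its normalized counts were 1173, 1166 and 1138 in siControl, given as for the other genes in the order of the replicate numbers, and 2911, 2997 and 3239 in siPVT1. The siPVT1 libraries lay close together, far above the siControl libraries. The group mean was 1159 ± 18.6 and 3049 ± 170.0 (SD, n = 3 each). SREBF1 thus rose by a log2 fold change of 1.40 (standard error 0.0644, edgeR quasi-likelihood test, adjusted p = 1.93e-06). SREBF1 shares 556 of its 8234 exonic bases with RAI1 on the opposite strand. RAI1 had at most 2210 counts in a library, and the strand setting of the counting is not given in the sources used here.

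SREBF2, the paralogue that mainly drives sterol synthesis, rose by nearly the same amount. Its normalized counts were 3170.2, 3058 and 3219 in siControl and 9006, 8219.8 and 7646 in siPVT1. This was a log2 fold change of 1.40 (standard error 0.0723, edgeR quasi-likelihood test, adjusted p = 3.07e-06). Its highest siPVT1 library was replicate 1, whereas that of SREBF1 was replicate 3. Among 14 genes that control SREBP1 or act with or beside it, 13 were tested. Of these 13, 3 rose and 4 fell past both thresholds, and the median log2 fold change of the 13 was −0.13. The 3 that rose were SREBF2 and the pair of retention proteins INSIG1 and INSIG2. INSIG1 rose by 3.05 on the log2 scale, with 404 ± 13.9 normalized counts in siControl and 3347 ± 308 in siPVT1 (SD, n = 3 each). INSIG2 rose by 2.83, with 498 ± 2.54 and 3540.2 ± 345 (SD, n = 3 each). The 4 that fell were USF2, a bHLH factor of lipogenic promoters, at −1.24, PPARGC1B, a coactivator, at −1.12, and NR1H2 and NR1H3, the LXR receptors that switch on SREBF1, both at −1.08. NR1H3 stood outside the number of genes to be named in each direction, and was chosen after its values were seen. SCAP had a log2 fold change of −0.13 and did not pass the test (edgeR quasi-likelihood test, adjusted p = 0.129). Of the 2 proteases, MBTPS1 rose by 0.999, just short of the fold threshold (adjusted p = 3.74e-06, same edgeR test). MBTPS2 fell by 0.19 (adjusted p = 0.0176, same edgeR test). Both are named after their values were seen. By the adjusted p-value alone, 5 of the 13 rose and 6 fell, with those past both thresholds counted.

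ACLY and ACSS2, the enzymes that supply acetyl-CoA, both rose, ACSS2 by the larger fold. ACLY is on chromosome 17, from 41866917 to 41930542 on the minus strand. ACLY gave normalized counts of 11629, 11311 and 11702 in siControl and 19127, 20067 and 22103 in siPVT1. The mean went from 11547 ± 208 to 20432 ± 1521 (SD, n = 3 each). On the log2 scale ACLY rose by 0.82 (standard error 0.0669, edgeR quasi-likelihood test, adjusted p = 2.49e-05). ACSS2 is on chromosome 20, from 34872146 to 34927962 on the plus strand. Normalized counts of ACSS2 were 278, 267 and 294 in siControl and 1074, 992 and 769 in siPVT1. ACSS2 was the only one of the 10 genes with its highest siPVT1 value in replicate 1 and its lowest in replicate 3. The mean went from 280 ± 13.6 to 945 ± 158 (SD, n = 3 each). On the log2 scale ACSS2 rose by 1.75 (standard error 0.130, edgeR quasi-likelihood test, adjusted p = 1.60e-05).

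Of 17 other genes of carbon supply and synthesis, 15 were tested, and 7 rose and 5 fell by the adjusted p-value. Past both thresholds, 1 of these rose and 1 fell. The 1 that rose was IDH1, a cytosolic source of NADPH, at 1.01 on the log2 scale. The 1 that fell was OLAH, a thioesterase that ends chains early, at −1.36. The mitochondrial acetyl-CoA synthetase ACSS1 had a log2 fold change of −0.22 and did not pass the test (edgeR quasi-likelihood test, adjusted p = 0.0957). The median of this list was 0.14.

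ACACA and FASN, which commit acetyl-CoA to new palmitate, had smaller changes and wide siPVT1 spreads. ACACA is on chromosome 17, from 37084992 to 37406836 on the minus strand. Normalized counts of ACACA were 2570.2, 2561 and 2469 in siControl and 2950.0, 3295 and 4365 in siPVT1. Replicate 3 stood well above the other siPVT1 libraries. The log2 fold change was 0.48 (standard error 0.131, 95% interval 0.18 to 0.78, edgeR quasi-likelihood test, adjusted p = 0.0134). With scaling by the total count it was 0.33 (adjusted p = 0.0593, same edgeR test), and without siControl replicate 3 it was 0.46 (adjusted p = 0.0506, same edgeR test). Without siPVT1 replicate 3 it was smaller, at 0.29, and still passed the adjusted p-value (adjusted p = 0.00165, same edgeR test). Its mitochondrial paralogue ACACB had a log2 fold change of 0.54.

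FASN is on chromosome 17, from 82078338 to 82098294 on the minus strand. In the libraries FASN had 7131, 6875 and 7064 in siControl and 8971, 9964 and 12823 normalized counts in siPVT1. As for ACACA, replicate 3 was the highest siPVT1 library. The mean rose from 7023 ± 133 to 10586 ± 1999.9 (SD, n = 3 each). On the log2 scale FASN rose by 0.59 (standard error 0.120, edgeR quasi-likelihood test, adjusted p = 0.00319).

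SCD and ELOVL6, which act on palmitate, rose by different amounts. SCD is on chromosome 10, from 100347233 to 100364826 on the plus strand, and in siPVT1 it had the highest level of the 10 per kilobase of transcript. Normalized counts of SCD were 11168, 11162 and 11008 in siControl and 28071, 29403 and 34146 in siPVT1. The siControl libraries differed by only 1.01-fold between the highest and the lowest. The mean rose from 11113 ± 90.6 to 30540 ± 3193 (SD, n = 3 each). On the log2 scale SCD rose by 1.46 (standard error 0.0798, edgeR quasi-likelihood test, adjusted p = 3.88e-06). SCD5, the other human stearoyl-CoA desaturase, had a log2 fold change of 0.97.

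ELOVL6 is on chromosome 4, from 110045846 to 110199199 on the minus strand. ELOVL6 gave normalized counts of 1461, 1419 and 1481 in siControl and 2228, 2647 and 3388 in siPVT1. Its siPVT1 libraries were the most scattered of the 10, with a 1.52-fold gap between replicates 1 and 3. ELOVL6 rose by 0.92 on the log2 scale (standard error 0.137, edgeR quasi-likelihood test, adjusted p = 0.000608), and it was 1.04 without siPVT1 replicate 1, which brought ELOVL6 past both thresholds and the count to 6 of 10.

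FADS2, ELOVL5 and FADS1, which make polyunsaturated chains, rose by unequal amounts. FADS2 had the largest change of the 10. It is on chromosome 11, from 61792980 to 61867354 on the plus strand. The libraries held normalized counts of 1080, 1026 and 1001 in siControl and 6137, 6887 and 7084 in siPVT1. The lowest siPVT1 library stood several-fold above the highest siControl library. The log2 fold change was 2.69 (standard error 0.0760, 95% interval 2.52 to 2.87, edgeR quasi-likelihood test, adjusted p = 4.22e-07), which was rank 16 of the 19008 tested genes by p-value, and 290 tested genes had a larger log2 fold change.

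FADS1 is the neighbour of FADS2, from 61799627 to 61829318 on the minus strand. Normalized FADS1 counts were 4676, 4713 and 4564 in siControl and 10450.1, 11098 and 12087 in siPVT1. The log2 fold change was 1.27 (standard error 0.0673, edgeR quasi-likelihood test, adjusted p = 3.42e-06). The RefSeq starts of FADS1 and FADS2, from which the printed windows were taken, lie 599 bases apart on opposite strands, each inside the transcribed stretch of the other, so the printed FADS2 window lies within FADS1. The GENCODE canonical starts of the pair lie 11297 bases apart. In GENCODE v44 the pair share 490 exonic bases on opposite strands, of 10228 in FADS1 and 10553 in FADS2. FADS2 also shares 49 with FEN1 on the same strand. The counts of the pair are uncertain for this reason, by an amount that was not tested.

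ELOVL5 is on chromosome 6, from 53267398 to 53349179 on the minus strand, and had the smallest change of the 10. Its normalized counts were 4833, 4746 and 4897 in siControl and 6285, 6678 and 6587 in siPVT1. The siPVT1 libraries lay within 1.06-fold of each other, the tightest of the 10. ELOVL5 rose by 0.43 on the log2 scale (standard error 0.0539, edgeR quasi-likelihood test, adjusted p = 0.000228), and by 0.28 with scaling by the total count.

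**Figure D2:**
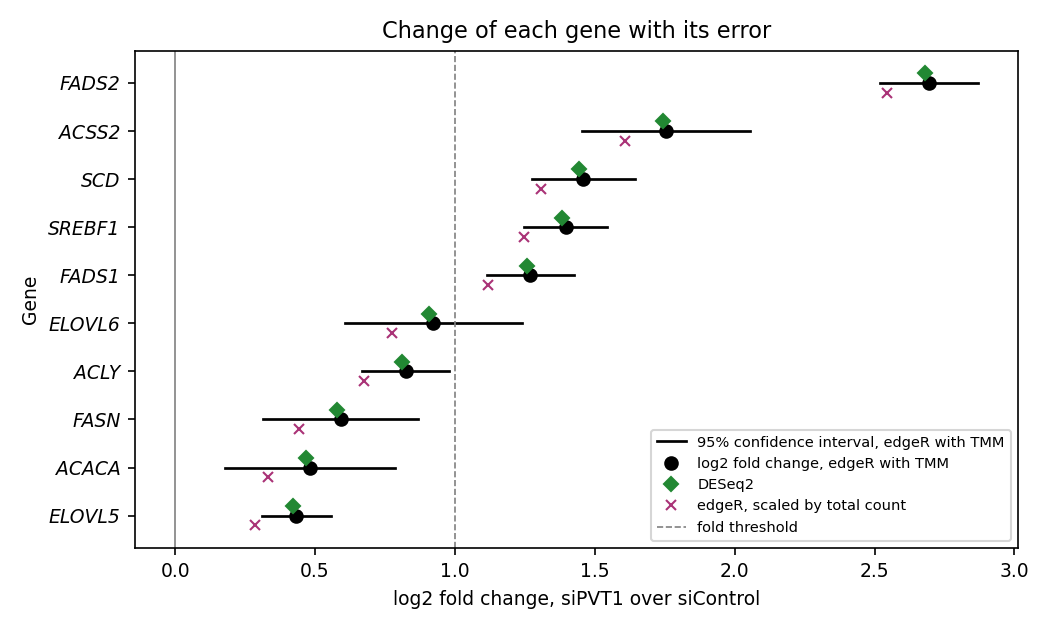
Log2 fold changes of the 10 genes, siPVT1 over siControl, as points with 95% confidence intervals from the edgeR fit, and the same changes from DESeq2 (diamonds) and from edgeR scaled by the total count (crosses). FADS2 stands alone at 2.69, SREBF1, SCD, ACSS2 and FADS1 lie between 1.27 and 1.75, and the other 5 lie between 0.43 and 0.92, below the line at 1.

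Of 11 other elongation genes, all tested, 2 rose past both thresholds and 0 fell, and the median was −0.016. They were ELOVL2, which lengthens long polyunsaturated chains, at 1.11, and ELOVL3, at 1.19 from a mean of 6.40 normalized counts in siControl. By the adjusted p-value alone, with ELOVL2 and ELOVL3 counted, 4 rose and 2 fell. Of 8 other desaturation genes, 6 were tested, and CYB5R3, the reductase that passes electrons to cytochrome b5, fell past both thresholds at −1.30. By the adjusted p-value alone, 4 of those 6 rose, SCD5 among them, and the 1 that fell was CYB5R3 again.

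Summed over the 10 genes, the level was 1478, 1454 and 1465 CPM in siControl and 2834, 3021 and 3424 in siPVT1. The groups did not overlap. The mean rose from 1466 ± 12.1 to 3093 ± 302 (SD, n = 3 each), a ratio of 2.11, and with scaling by the total count alone the ratio was 1.90. The exact two-sided permutation test gave p = 0.1, and a design of 3 against 3 cannot give less.

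The make-up of that sum also differed. SCD took 24.4% ± 0.279 of the counts of the 10 genes in siControl and 31.7% ± 0.395 in siPVT1 (SD, n = 3 each). FADS2 went from 2.27% ± 0.0763 to 6.98% ± 0.340 (SD, n = 3 each). The shares of FADS1, SREBF1 and ACSS2 were also higher in every siPVT1 library. FASN took 15.4% ± 0.173 in siControl and 10.9% ± 0.974 in siPVT1, and ACLY took 25.3% ± 0.328 and 21.3% ± 0.481 (SD, n = 3 each). ELOVL5 and ACACA also had lower shares in every siPVT1 library, and the shares of ELOVL6 overlapped between the groups.

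Levels were compared between genes as CPM per kilobase of the GENCODE canonical transcript, a scale that rests on 1 transcript per gene. In siControl the order from the highest was ACLY at 86.4, SCD at 68.1, ELOVL5 at 56.1, FADS1 at 34.2, FASN at 26.7, FADS2 at 10.8, ACACA at 8.13, SREBF1 at 7.60, ELOVL6 at 7.11 and ACSS2 at 3.11. No neighbours in that order overlapped between libraries. In siPVT1 the order was SCD at 187, ACLY at 153, FADS1 at 82.5, ELOVL5 at 75.7, FADS2 at 69.7, FASN at 40.2, SREBF1 at 19.98, ELOVL6 at 13.5, ACACA at 11.3 and ACSS2 at 10.5. SCD passed ACLY, FADS2 passed FASN and SREBF1 passed ACACA, each without overlap between the libraries of the pair. The libraries of FADS1 and ELOVL5, of ELOVL5 and FADS2, of ELOVL6 and ACACA, and of ACACA and ACSS2 overlapped in siPVT1.

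Ratios of normalized counts within a library do not depend on the scaling between libraries, and 8 pairs were compared. FADS2 over FADS1 was 0.231, 0.218 and 0.219 in siControl and 0.587, 0.621 and 0.586 in siPVT1. The change on the log2 scale was 1.42, and the groups did not overlap. SCD over FASN rose on the log2 scale from 0.66 ± 0.032 to 1.54 ± 0.12 (SD, n = 3 each), a difference of 0.88. SCD over FADS2 went the other way, with 10.3, 10.9 and 11.0 in siControl and 4.57, 4.27 and 4.82 in siPVT1, a log2 difference of −1.24. ACSS2 over its mitochondrial counterpart ACSS1 differed by 1.96 on the log2 scale, SCD over SCD5 by 0.48 and ELOVL6 over ELOVL5 by 0.47, and none of these groups overlapped. Each of these 6 pairs gave p = 0.1 in the two-sided exact permutation test, the smallest possible, and 0.133 after Benjamini-Hochberg adjustment over the 8 pairs.

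The ratio of SREBF1 to SREBF2 had nearly the same mean in both groups. On the log2 scale it was −1.44 ± 0.055 in siControl and −1.44 ± 0.20 in siPVT1 (SD, n = 3 each, exact permutation p = 1), with single siPVT1 libraries at −1.63, −1.46 and −1.24. The siPVT1 libraries thus lay on both sides of the siControl libraries. ACACA over ACACB was 3.78 ± 0.074 in siControl and 3.70 ± 0.34 in siPVT1 (SD, n = 3 each, exact permutation p = 0.8, adjusted 0.914), and the groups overlapped.

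**Figure D3:**
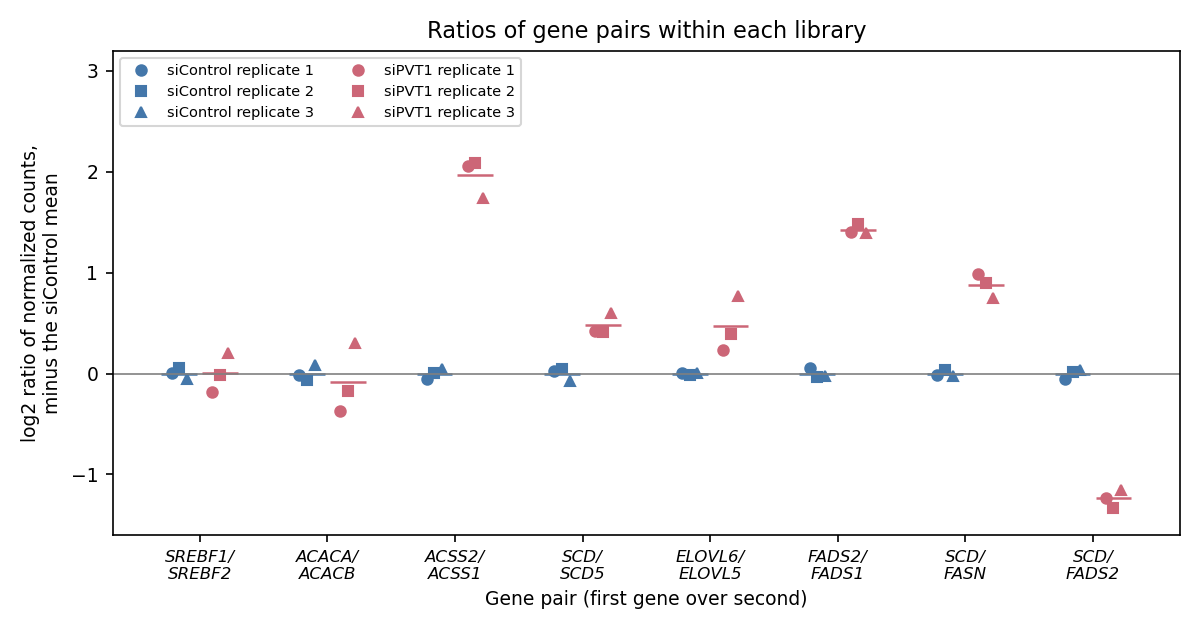
Log2 ratio of normalized counts for the 8 gene pairs in each library, minus the mean of the siControl libraries, with a bar at the group mean. The siPVT1 points lie above the siControl points for ACSS2/ACSS1, SCD/SCD5, ELOVL6/ELOVL5, FADS2/FADS1 and SCD/FASN, below them for SCD/FADS2 (a difference of −1.24), and on both sides of them for SREBF1/SREBF2 and ACACA/ACACB.

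For each of these genes the siPVT1 libraries were further apart than the siControl libraries, by both the coefficient of variation and the gap from highest to lowest. The coefficient of variation of the 10 genes was 0.815% to 4.86% in siControl (median 1.85%) and 3.16% to 21.3% in siPVT1 (median 8.95%). Over the 5937 genes with a mean of at least 1000 normalized counts, the medians were 3.29% and 7.36%. ACSS2, with group means of 280 and 945, lay below that minimum. The gap between the highest and the lowest siPVT1 library was 1.52-fold for ELOVL6, 1.48-fold for ACACA, 1.43-fold for FASN and 1.40-fold for ACSS2, and at most 1.22-fold for the other 6. Replicate 3 was the highest siPVT1 library for 8 of the 10 genes, the exceptions being ACSS2, with replicate 1, and ELOVL5, with replicate 2. Among all tested genes replicate 3 was the highest siPVT1 library for 41.3%, and among the 2248 genes higher past both thresholds it was so for 18.1%. In the sterol synthesis genes it was so for 10 of 12. Without siPVT1 replicate 3 the same 5 genes passed both thresholds.

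**Figure D4:**
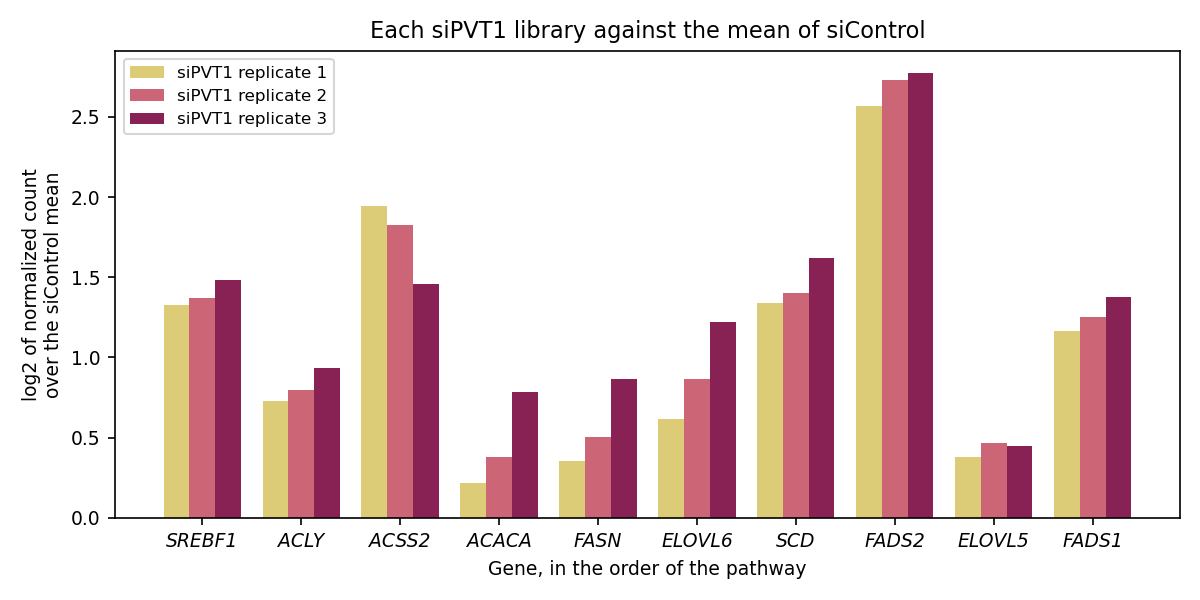
Log2 ratio of each siPVT1 library to the mean of the siControl libraries for the 10 genes in the order of the pathway, 1 bar per library from 0. Replicate 3 is the highest bar for 8 genes and the lowest for ACSS2, and replicates 1 and 3 of ELOVL6 are 1.52-fold apart.

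Over the 6 libraries, genes outside the set whose log2 level followed SREBF1 closely included TMEM245 and OASL, with Pearson r of 0.99983 and 0.99981. Such values describe mostly the step between 2 groups of 3 libraries, and 632 of 18998 other tested genes (3.33%) had r of at least 0.99. TMEM245, a membrane protein gene, changed by 0.37 on the log2 scale and OASL, an interferon-stimulated gene, by 4.05. Among the other 9 genes of the set, r with SREBF1 ran from 0.844 for ACACA and 0.911 for FASN to 0.9994 for FADS1.

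The 12 genes of the sterol list, which SREBP-2 controls, all rose past both thresholds, with log2 fold changes of at least 1.504 (MVD) and a median of 1.99. Of the 10 fatty acid genes, FADS2 alone exceeded that median. Over the 9 other lists of lipid genes, without sterol synthesis, 112 of 125 genes were tested, 21 rose and 11 fell past both thresholds, which is 18.8% and 9.82% of those tested, beside 11.8% and 9.64% of all tested genes. Their median log2 fold change was 0.30.

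**Figure D5:**
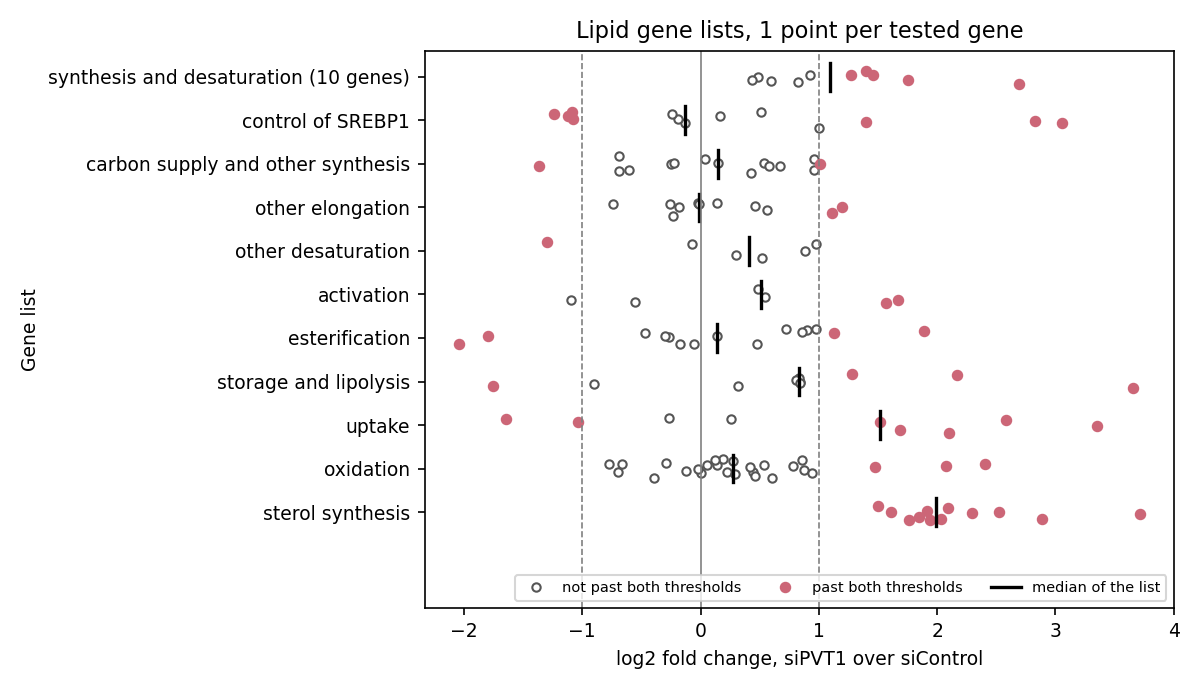
Log2 fold changes, siPVT1 over siControl, of the tested genes in the set and in 10 other lists of lipid genes, 1 point per gene, filled where both thresholds were passed, with a bar at the list median. The 10 fatty acid genes (median 1.10) and the 12 sterol genes (median 1.99) lie wholly to the right of 0, and the other lists have points on both sides.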

How the data were processed

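RNA sequencing of SK-OV3 cells in 6 libraries was analysed, 3 siControl and 3 siPVT1. The values the authors deposited are estimated counts, a whole number for each gene symbol and library, not normalized. The submitters' processing notes name bcl2fastq 2.20.0, STAR 2.7.3a, Salmon 0.14.1 and GRCh38.p13. Salmon divides reads between similar transcripts by estimation. The strand setting is not given in the sources used here. The table held no columns of fold changes or p-values, and every column was matched to a sample.

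Counts were tested in edgeR 4.0.16 (R 4.3.3) with TMM normalization and the quasi-likelihood test, after a filter that required 5 normalized counts or more in 3 libraries or more (19008 genes), with Benjamini-Hochberg adjustment over all of them. Both thresholds means an adjusted p-value under 0.05 together with a log2 fold change of 1 or more in either direction. Normalized counts are TMM-scaled CPM times the mean effective library size. Dividing the size of each log2 fold change by the root of its F statistic gave the standard error. Correlations used log2 of CPM plus 0.5. Sequences came from RefSeq promoter tables. Coordinates and shared exonic bases came from GENCODE v44, whereas the authors counted reads with GENCODE v35. ACLY and ELOVL6 share 156 and 240 exonic bases with lncRNAs on the opposite strand.

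The genes and lists were chosen with earlier results of these data known. Named in the text were the 10 genes, up to 3 per direction and list among genes past both thresholds, paralogues used in ratios, PVT1, and the 3 genes most like SREBF1, of which 1 is not reported here. The tests were run on simulated counts first. Alternatives were DESeq2 1.42.0, its size factors, total count scaling, no filter, filterByExpr, a replicate block, a test against a 2-fold change, the adjusted p-value alone, and each library left out. Experiments other than RNA sequencing were not analysed here.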

Additional observations from a re-analysis of the deposited data

How the results depend on the processing

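Of 120 alternative values for the 10 genes, without the changes of threshold given next, 117 kept their direction and their side of both thresholds and 0 changed direction; the exceptions were ACACA, under total count scaling and without siControl replicate 3, and ELOVL6, without siPVT1 replicate 1. Tested against a 2-fold change, 1976 genes passed in place of 4081, 19 genes of the other 9 lipid lists in place of 32, and the same 5 of the 10 (the other 5 had an adjusted p of 1 in that edgeR test). By the adjusted p-value alone these counts were 11007, 83 and 10. Total count scaling put the median over all genes at −0.148 (log2) in place of 0.0014 and gave 4190 genes, of which 43.8% were higher in place of 55.1%. With libraries left out in turn, 3507 to 4239 genes, 27 to 32 list genes and 5 to 6 of the 10 passed, and the log2 ratio of the sum of the 10 was 0.998 to 1.14. The SREBF1 to SREBF2 difference then ran from −0.101 to 0.0945 (−0.029 without siControl replicate 3, −0.10 without siPVT1 replicate 3) and that of ACACA to ACACB from −0.271 to 0.0622 (the latter without siPVT1 replicate 1). With fewer libraries, the smallest permutation p was 0.2. The replicate block gave 3924 genes, 31 list genes and 5 of the 10. Same-numbered libraries correlated at −0.053, 0.076 and 0.015 in their deviations from the group means. Pairing by number was not seen in these values, and 3 libraries per group are too few to settle it. Each of the 10 genes had at least 264 counts in every library, and few-count genes of the lists (ELOVL3, PLIN1, FABP3, PDK4, SLC27A2) rest on less.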

Other observations

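Genes that use fatty acids moved in both directions. Of 7 activation genes, 6 were tested, and ACSF2 and ACSL3, which join fatty acids to coenzyme A, rose past both thresholds at 1.67 and 1.57 on the log2 scale. ACSL3 rose from 3885 ± 148 to 11516 ± 915 normalized counts (SD, n = 3 each). Of 16 esterification genes, 15 were tested, 2 rose and 2 fell past both thresholds. GPAT3 and GPAM, acyltransferases of the first step of glycerolipid synthesis, fell from 2635 ± 132 to 639 ± 52.6 and from 3423 ± 73.6 to 987 ± 82.1 normalized counts (SD, n = 3 each), log2 fold changes of −2.04 and −1.79. AGPAT2, of the next step, rose by 1.13 and LPIN1, a phosphatidate phosphatase, by 1.89 on the log2 scale. LPIN1 went from 2273 ± 29.4 to 8425 ± 892 normalized counts (SD, n = 3 each).

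Of 13 storage and lipolysis genes, 10 were tested, 3 rose and 1 fell past both thresholds. HILPDA, a lipid droplet protein that inhibits lipolysis, rose from 109 ± 12.97 to 1377 ± 647 normalized counts (SD, n = 3 each), by 3.66 on the log2 scale and with a wide siPVT1 spread. PNPLA3 rose by 1.28, PLIN1 by 2.16 from a mean of 3.19 normalized counts, and ABHD5, the coactivator of adipose triglyceride lipase, was lower at −1.75. Of 12 uptake genes, 9 were tested, 5 rose and 2 fell past both thresholds. VLDLR, a lipoprotein receptor, rose from 802 ± 37.5 to 3449 ± 399.8 (SD, n = 3 each) and FABP4 from 18.3 ± 1.80 to 110 ± 33.1 (SD, n = 3 each). FABP3 was near the floor, with normalized counts of 2.86, 3.03 and 1.85 in siControl and 27.8, 32.8 and 21.6 in siPVT1. SLC27A1 and SLC27A3 rose by 1.69 and 1.52 on the log2 scale and SLC27A2 and SLC27A4, of the same transporter family, were lower at −1.65 (from a mean of 14.3 normalized counts) and −1.04; SLC27A1 and SLC27A3 are named after their values were seen. Of 27 oxidation genes, all tested, 15 rose and 3 fell by the adjusted p-value. Past both thresholds, 3 of these rose and 0 fell. The 3 were PPARA, a nuclear receptor of fatty acid breakdown, at 2.07, CPT1B, a carnitine acyltransferase, at 1.48, and PDK4, a kinase that restrains pyruvate entry, at 2.41 from a mean of 7.43 normalized counts. The adjusted p-values of these genes came from the same edgeR fit, and no test of the lists was made.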
